A study of Mus musculus with 8 samples.

Results

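The genes described here encode the machinery that docks, primes and fuses secretory vesicles: SNARE proteins, syntaxin-binding proteins, synaptotagmins, complexins, Rim and Unc13 proteins, the Rab3 and Rab27 GTPases and their effectors. They were chosen by gene symbol, with no measured value in the rule, but with earlier results of these data known. Such a symbol was carried by 75 of the 24537 genes in the count table. Polyadenylated RNA was sequenced in islets of the pancreas from 2 genotypes of male mice, Wfs1KO and WT, all 12 weeks of age and untreated, with 4 libraries each. The islets were isolated by collagenase digestion through the duct and a density gradient. The labels give neither the allele nor the strain, and do not say whether a library came from 1 mouse or from several, so p-values measure only the spread between these libraries, which may be technical.

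Insulin granules fuse with the plasma membrane when a vesicle SNARE, chiefly Vamp2, zips together with the target SNAREs Stx1a and Snap25. Rab27a and Rab3 on the granule recruit effectors such as Sytl4 (granuphilin) that dock it, Rim and Unc13 proteins prime it, and synaptotagmins couple fusion to calcium, with complexins as partners of the assembled SNAREs. Other syntaxins and their relatives serve the endosomes, the Golgi and the endoplasmic reticulum. Wfs1, the gene lost in Wolfram syndrome, encodes a membrane protein of the endoplasmic reticulum.

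The libraries held between 15810830 and 27057617 exon counts, and the 75 genes took 0.619 to 0.684% of them in Wfs1KO islets and 0.652 to 0.677% in WT islets. Wfs1 itself was counted at 101, 105, 125 and 98.9 CPM in Wfs1KO islets, against 182, 156, 190.1 and 188 CPM in WT islets, so that reads over its exons remained but were fewer in every Wfs1KO library (log2 fold change -0.74, SE 0.08, adjusted p = 5.06e-05). Insulin transcripts were the leading product of all libraries, at 8.37 to 11.1% of counts in Wfs1KO islets and 13.01 to 17.2% in WT islets, with no overlap between the genotypes. The summed level of 14 beta cell markers was 111387 to 136521 CPM (counts scaled to the same library total) in Wfs1KO islets and 164718 to 210672 CPM in WT islets. Of the 14, 12 fell and 1, Iapp, rose (log2 fold change 0.24). Endothelial markers moved the other way, at 859 to 1003 CPM in Wfs1KO islets and 632 to 718 CPM in WT islets, with 12 of 14 higher. Of 7 delta cell markers 5 rose and none fell, and of 12 stellate cell markers 3 rose and none fell. Of 10 alpha cell markers 3 rose and 1 fell, of 7 ductal markers 1 rose and 1 fell, and of 12 neural markers 1 rose. None of 11 macrophage markers and 2 pancreatic polypeptide cell markers passed. Over all tested genes, 10.4% were higher and 8.49% lower at an adjusted p under 0.05. Markers of acinar cells, the enzyme-secreting exocrine cells, summed to 10952 to 74061 CPM in Wfs1KO islets and 34531 to 77853 CPM in WT islets. Of 17 tested, 1 passed: Bhlha15, which rose (log2 fold change 0.57). It was also the only acinar marker tested with a positive log2 fold change. No gene of these marker lists was at 0 in all libraries, and the part of these markers in the results on exocytosis genes was not tested. A principal component holding 37.9% of the variance parted replicates 1 and 2 from replicates 3 and 4 of both genotypes, and the labels give no batch for this.

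Of the 75 genes, 69 had enough counts to be tested, and 25 of them passed an adjusted p of 0.05: 11 were higher and 14 lower in Wfs1KO islets. That is 36.2% of the tested members, beside 18.9% of all 15733 tested genes, of which 10.4% were higher and 8.49% lower. Because a call depends on how deeply a gene was counted, the shares were also read above a level. Among genes with a mean of at least 10 CPM, 24 of 53 members passed (45.3%), against 24.9% of all such genes, and at 50 CPM or more 16 of 31 members passed (51.6%), against 29.1%. Under 10 CPM, 1 of 16 members passed (6.25%), near the 8.73% of all such genes. The median log2 fold change was 0.01 over the tested members and 0.01 over all tested genes. At 10 CPM or more 10 members rose and 14 fell, and at 50 CPM or more 5 rose and 11 fell, with a median of -0.07 over those 31 members, against 586 higher, 632 lower and a median of -0.01 over all 4180 such genes. The libraries of the 2 genotypes did not overlap for 24 of the 69 tested members (34.8%), beside 22.6% of all tested genes. Only 7 of the 25 changes reached 1.5-fold. In whole islets, fewer cells of a type and less RNA per cell cannot be told apart, and this applies to every change given here.

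**Figure D1:**
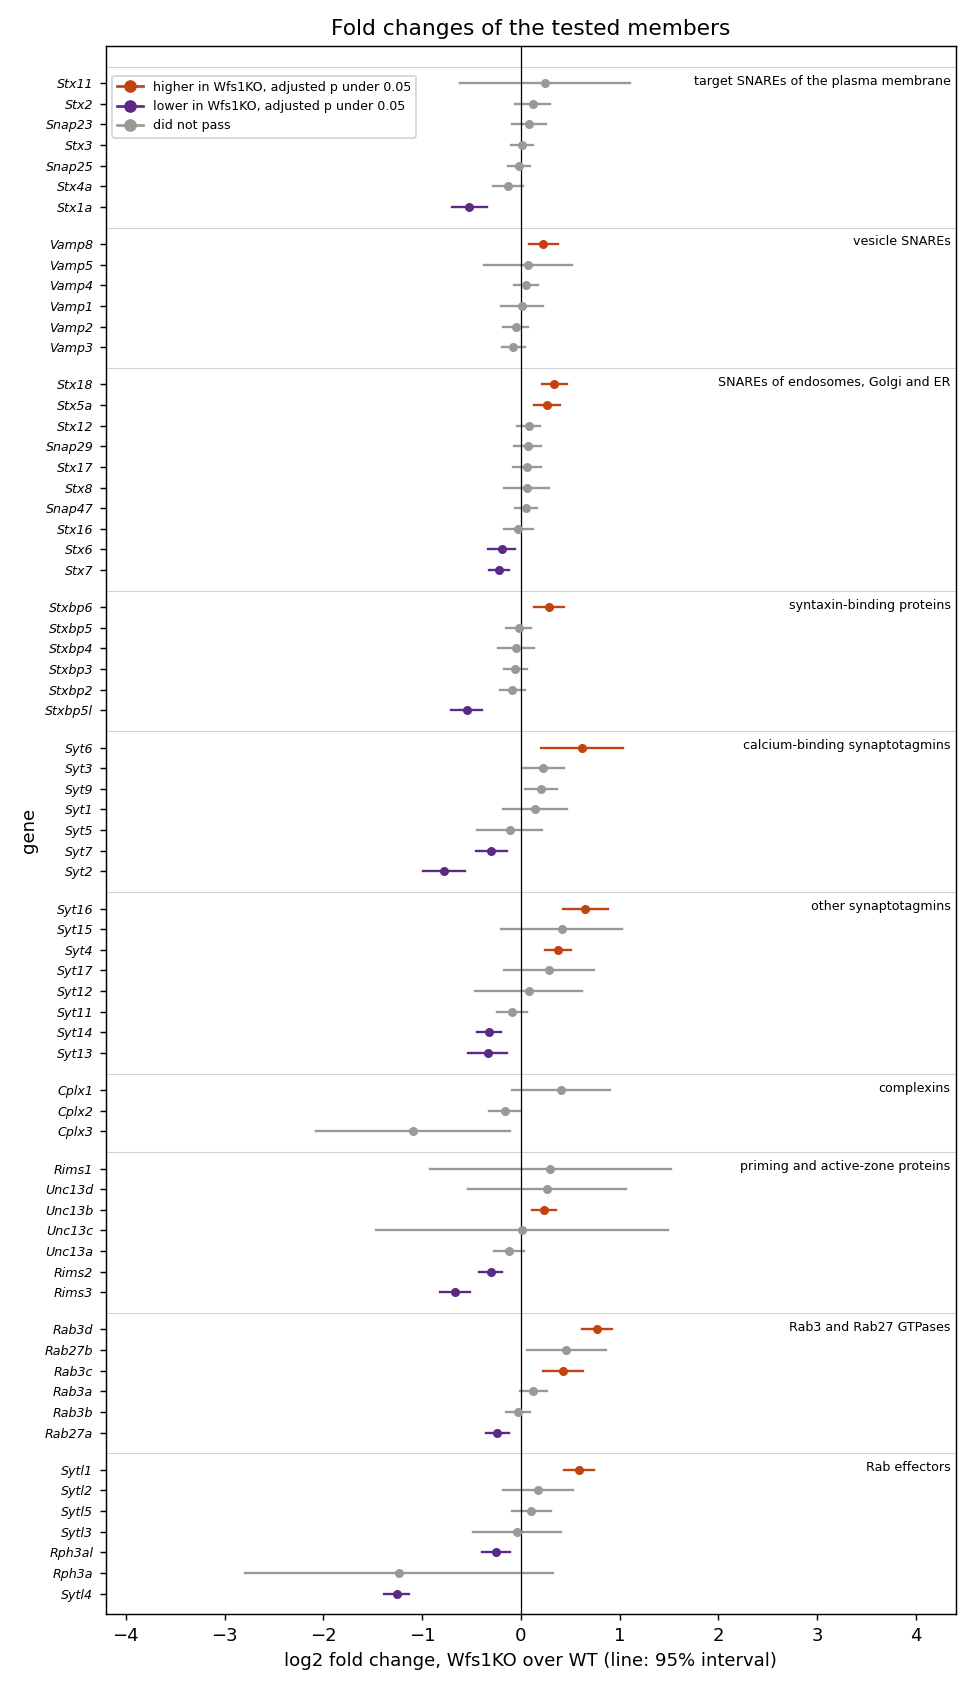
Log2 fold change, Wfs1KO over WT, of 67 tested genes on the x axis, with lines for the 95% interval and genes grouped by role on the y axis. The largest drop among the genes that passed is that of Sytl4 at -1.26 and the largest rise that of Rab3d at 0.77, while Snap25 and Vamp2 sit at -0.02 and -0.05.

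The promoters of the strongest calls are shown first, because the members that fell and those that rose can then be read side by side. They are the 250 bases before the RefSeq start (GRCm38.p6, the assembly also called mm10), 5′ to 3′ on the gene's strand, of the 2 genes per direction with the smallest adjusted p whose RefSeq start lay within 100 bases of the start in the count table. Capitals mark matches to a GC box (GGGCGG), an E-box (CANNTG, which reads CAGCTG in both places here) or the first part of a Maf recognition element (TGCTGA), each read on both strands. Sytl4 lies at chrX:133981813-133982062, minus strand, Syt2 at chr1:134646362-134646611, plus strand, Rab3d at chr9:21918184-21918433, minus strand, and Sytl1 at chr4:133263088-133263337, minus strand.
Sytl4: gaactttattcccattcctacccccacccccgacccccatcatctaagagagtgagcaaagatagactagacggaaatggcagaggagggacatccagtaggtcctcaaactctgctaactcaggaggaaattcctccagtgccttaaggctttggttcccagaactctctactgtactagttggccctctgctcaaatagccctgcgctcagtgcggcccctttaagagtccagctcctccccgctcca
Syt2: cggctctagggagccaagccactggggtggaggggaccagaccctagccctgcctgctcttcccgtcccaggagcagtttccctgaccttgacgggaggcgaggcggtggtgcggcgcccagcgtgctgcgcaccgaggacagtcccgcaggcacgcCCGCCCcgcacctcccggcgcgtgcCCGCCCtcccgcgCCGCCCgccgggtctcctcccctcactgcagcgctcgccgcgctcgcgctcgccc
Rab3d: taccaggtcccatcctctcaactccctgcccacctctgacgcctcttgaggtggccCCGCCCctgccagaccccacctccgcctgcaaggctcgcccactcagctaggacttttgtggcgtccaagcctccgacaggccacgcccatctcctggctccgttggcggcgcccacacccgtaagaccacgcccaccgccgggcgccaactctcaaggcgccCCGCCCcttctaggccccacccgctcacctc
Sytl1: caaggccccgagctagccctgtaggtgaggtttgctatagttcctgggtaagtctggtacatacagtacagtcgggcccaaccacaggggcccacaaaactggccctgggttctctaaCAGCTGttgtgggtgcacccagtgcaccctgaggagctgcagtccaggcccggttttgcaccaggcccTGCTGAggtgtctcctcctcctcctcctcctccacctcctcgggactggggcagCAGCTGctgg
The Sytl4 sequence held no match. The Syt2 and Rab3d sequences held GC boxes, at 3 and 2 places, whereas Sytl1 held E-boxes at 2 places and the Maf element at 1.

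Over the 250 upstream bases of all 32851 RefSeq promoters, 32.7% held a GC box, 66.2% an E-box and 16.1% the Maf element. RefSeq promoters were found for 57 of the 75 members, in 72 entries, of which 13 belonged to genes that rose and 13 to genes that fell. GC boxes stood in 9 of the 13 promoter entries of genes that rose and in 9 of the 13 of genes that fell, E-boxes in 8 and 10, and the Maf element in 3 and 1. Among the 46 entries of the other members, 25 held a GC box, 33 an E-box and 4 the Maf element. The elements of the unfolded protein response were searched too, because Wfs1 is a protein of the endoplasmic reticulum: TGACGTCA (cyclic AMP response element), TGACGTGG (unfolded protein response element, which shares its first letters with the one before), TGATGNAA (the C/EBP-ATF element) and the endoplasmic reticulum stress element. None of the 4 was in any entry of a gene that rose or fell, and in all promoters they stood in 1.55%, 0.563%, 3.45% and 0.113%. A match is a string of letters, and its absence says nothing of a factor.

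Sytl4, or granuphilin, docks insulin granules at the plasma membrane by binding Rab27a and Stx1a. It showed the largest change of all 25 genes. In the order of replicates 1 to 4, which is kept throughout, Sytl4 (NM_013757, chrX:133936385-133981812, minus strand) was counted at 154, 172, 169 and 167 CPM in Wfs1KO islets, against 399.7, 400.4, 366 and 414 CPM in WT islets. Every Wfs1KO library lay under the lowest WT library by more than the spread within either genotype. The means were 165 ± 8.07 CPM in Wfs1KO islets and 395 ± 20.3 CPM in WT islets (SD, n = 4 each), a 2.39-fold lower level (log2 fold change -1.26, SE 0.06, adjusted p = 2.91e-08).

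Among the 7 Rab effectors, 1 rose and 2 fell. Sytl1, another synaptotagmin-like effector of Rab27 that is known from exocrine and blood cells, rose. Sytl1 (NM_031393, chr4:133253090-133263087, minus strand) was counted at 37.5, 36.5, 41.9 and 35.1 CPM in Wfs1KO islets, against 23.3, 25.7, 27.4 and 24.3 CPM in WT islets (log2 fold change 0.59, SE 0.07, adjusted p = 8.38e-05). Its highest WT library lay below its lowest Wfs1KO library. Rph3al (Noc2), an effector of Rab3 and Rab27 needed for normal hormone secretion in endocrine cells, was counted at 80.9, 85.9, 89.3 and 83.1 CPM in Wfs1KO islets, against 94.2, 99.6, 95.5 and 114 CPM in WT islets (log2 fold change -0.25, SE 0.06, adjusted p = 0.0148). The Rph3al libraries did not overlap, but without Wfs1KO replicate 1 the call was lost, with adjusted p of 0.0551. The other effectors, Sytl2, Sytl3, Sytl5 and Rph3a, did not pass, and of these only Sytl5 exceeded 10 CPM.

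Because Sytl4 fell and Sytl1 rose, the makeup of the synaptotagmin-like family was compared per length, on CPM per kilobase of exon. Sytl4 took 56.2 ± 1.79% of the family's summed level in Wfs1KO islets and 79.7 ± 1.55% in WT islets (SD, n = 4 each). Sytl1 took 25.2 ± 1.59% in Wfs1KO islets and 9.97 ± 1.02% in WT islets. Sytl5 took 16.2 ± 1.38% in Wfs1KO islets and 8.94 ± 1.06% in WT islets, although its own level did not pass the test (log2 fold change 0.11, 95% interval -0.09 to 0.30, adjusted p = 0.464). The family's summed level was 78.7 ± 3.02 CPM per kb in Wfs1KO islets and 132.7 ± 4.70 CPM per kb in WT islets.

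**Figure D2:**
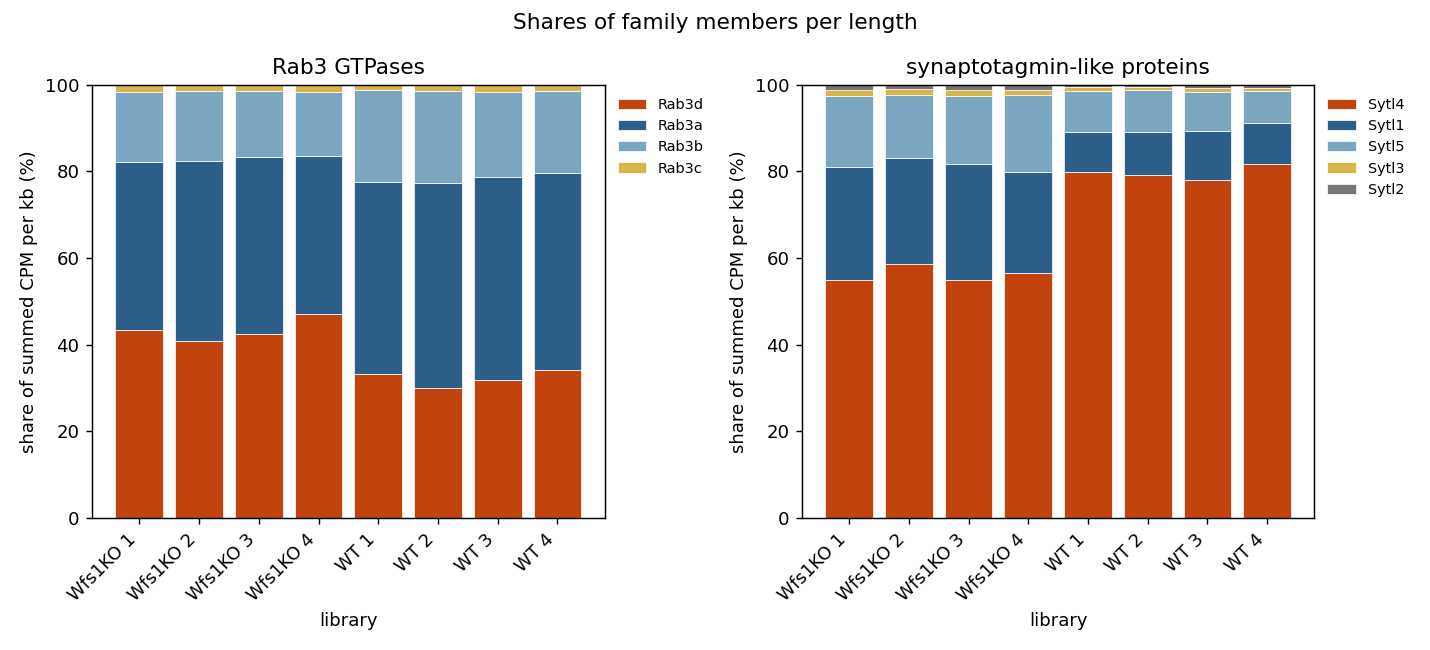
Share in percent of the summed CPM per kb of exon that each gene took within the Rab3 family and within the synaptotagmin-like family, 1 bar per library. Rab3d took 43.4% of its family on average in Wfs1KO islets and 32.3% in WT islets, and Sytl4 took 56.2% of its family in Wfs1KO islets and 79.7% in WT islets.

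The Rab GTPases mark granules for docking. Of 6 tested, 2 rose and 1 fell. Rab3d, best known from the zymogen granules of acinar cells, rose the most of all members. Rab3d (NM_031874, chr9:21907492-21918183, minus strand) was counted at 266, 253, 285 and 288 CPM in Wfs1KO islets, against 165, 140.3, 161 and 174 CPM in WT islets. Every Wfs1KO library lay above every WT library, and the fold was 1.70 (log2 fold change 0.77, SE 0.07, adjusted p = 7.60e-06). Acinar markers took 3.31, 3.25, 1.16 and 7.32% of counts in Wfs1KO replicates 1 to 4 and 4.68, 3.49, 7.29 and 3.44% in WT replicates 1 to 4. Their part in the level of Rab3d was not tested beyond a fit with an acinar marker score as covariate, which gave Rab3d an adjusted p of 3.63e-05.

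Rab3c, a close relative of Rab3a found mainly in neurons, was low and rose, at 22.3, 20.2, 19.2 and 21.6 CPM in Wfs1KO islets, against 13.4, 14.6, 18.6 and 15.7 CPM in WT islets (log2 fold change 0.43, SE 0.10, adjusted p = 0.00632). Its Wfs1KO libraries lay above the WT libraries, with WT replicate 3 close to Wfs1KO replicate 3. Rab27a, the GTPase that Sytl4 binds on the insulin granule, fell slightly, at 245, 243, 262 and 261 CPM in Wfs1KO islets, against 308, 282, 299.7 and 304 CPM in WT islets (log2 fold change -0.24, SE 0.05, adjusted p = 0.00698). The lowest WT library of Rab27a was still above the highest Wfs1KO library. In replicates 3 and 4 alone, the calls of Rab27a and Rab3c were lost, with adjusted p of 0.0608 and 0.207. The log2 fold change of Rab3c was 0.58 in replicates 1 and 2 alone and 0.25 in replicates 3 and 4 alone.

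Rab3a, the major neuronal Rab3, did not pass, at 88.5, 95.7, 102 and 82.9 CPM in Wfs1KO islets, against 81.99, 82.1, 88.1 and 85.8 CPM in WT islets (log2 fold change 0.13, 95% interval -0.01 to 0.27, adjusted p = 0.208). Its genotypes overlapped. Rab3b and Rab27b did not pass either, and Rab27b was below 6 CPM in all 8 libraries. Within the Rab3 family per length, Rab3d took 43.4 ± 2.66% in Wfs1KO islets and 32.3 ± 1.82% in WT islets, and Rab3a took 39.4 ± 2.24% in Wfs1KO islets and 46.0 ± 1.35% in WT islets. Rab3d was thus the leading Rab3 transcript by mean in Wfs1KO islets, and Rab3a in WT islets. In Wfs1KO replicate 2, however, Rab3a took 41.5% and Rab3d 40.8%. The family's summed level was 159.6 ± 7.29 CPM per kb in Wfs1KO islets and 125.6 ± 4.85 CPM per kb in WT islets.

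Of the 8 target SNAREs of the plasma membrane tested, none rose, 1 fell and 7 did not pass. The share called was 12.5%, beside 18.9% of all tested genes. Snap25, the partner of Stx1a in the fusion complex, was counted at 177, 189, 191 and 184 CPM in Wfs1KO islets, against 186, 189, 195 and 181 CPM in WT islets. The Snap25 libraries of the genotypes were interleaved (log2 fold change -0.02, 95% interval -0.13 to 0.09, adjusted p = 0.841). Stx1a, the syntaxin that receives insulin granules, was weakly counted and fell, at 10.05, 9.48, 10.5 and 9.90 CPM in Wfs1KO islets, against 12.9, 14.7, 15.1 and 14.7 CPM in WT islets. No Stx1a library of one genotype reached the range of the other (log2 fold change -0.52, SE 0.08, adjusted p = 6.47e-04). Stx4a, the syntaxin of slower granule fusion, was counted at 30.8, 31.1, 29.4 and 31.9 CPM in Wfs1KO islets, against 35.9, 36.8, 31.3 and 30.4 CPM in WT islets and did not pass (log2 fold change -0.13, 95% interval -0.28 to 0.02, adjusted p = 0.244). In replicates 1 and 2 alone Stx4a passed, with an adjusted p of 0.0485. Its libraries overlapped, and its exons meet exons on the opposite strand. Reads of the 2 strands cannot be told apart if counting ignored strand, and the counting command names no strand option. Per length, Stx4a was the most abundant of the plasma membrane syntaxins, at 22.9 CPM per kb in Wfs1KO islets and 25.01 in WT islets. Stx1a stood at 4.47 CPM per kb in Wfs1KO islets and 6.41 in WT islets. The count table lists Stx1a under a non-coding RefSeq record, with the exon length of 2235 bases used here.

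Of the 6 vesicle SNAREs tested, 1 rose and 5 did not pass. That is a share of 16.7% called, beside 18.9% of all tested genes. Vamp2, the main vesicle SNARE of insulin granules, was counted at 190.3, 188, 218 and 206 CPM in Wfs1KO islets, against 205, 208, 202 and 215 CPM in WT islets. The Vamp2 genotypes overlapped (log2 fold change -0.05, 95% interval -0.18 to 0.07, adjusted p = 0.6). Vamp8, a vesicle SNARE of zymogen granules, endosomes and lysosomes, was counted at 53.5, 57.5, 47.1 and 48.00 CPM in Wfs1KO islets, against 42.5, 43.2, 43.4 and 47.1 CPM in WT islets. Its lowest Wfs1KO library lay just above its highest WT library (log2 fold change 0.23, SE 0.07, adjusted p = 0.0348). The Vamp8 call was lost without Wfs1KO replicate 1 or 2 or WT replicate 1, 2 or 3, with adjusted p of 0.0718 to 0.104. It was also lost when an acinar marker score entered the fit, with an adjusted p of 0.0651 and a log2 fold change of 0.23. In replicates 3 and 4 alone the log2 fold change of Vamp8 was 0.0626, with an adjusted p of 0.686. Vamp1, Vamp3, Vamp4 and Vamp5 did not pass.

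The syntaxin-binding proteins govern whether syntaxin enters the fusion complex. Stxbp5l (tomosyn-2), an inhibitor that occupies the target SNAREs, fell, at 27.7, 27.7, 27.1 and 30.7 CPM in Wfs1KO islets, against 41.5, 44.3, 36.1 and 43.4 CPM in WT islets. Its genotypes did not overlap (log2 fold change -0.55, SE 0.07, adjusted p = 1.45e-04). Stxbp6 (amisyn), a syntaxin-binding protein that hinders fusion complexes, rose, at 52.5, 52.2, 55.04 and 64.4 CPM in Wfs1KO islets, against 48.98, 45.02, 45.5 and 44.03 CPM in WT islets (log2 fold change 0.29, SE 0.07, adjusted p = 0.0115). The smallest Wfs1KO value of Stxbp6 lay above the largest WT value. In replicates 1 and 2 alone its log2 fold change was 0.13 and the call was lost, with an adjusted p of 0.304, and in replicates 3 and 4 alone it was 0.41. Stxbp2, the partner of Stx3, did not pass, at 72.1, 70.7, 70.7 and 64.5 CPM in Wfs1KO islets, against 66.9, 77.3, 75.8 and 75.1 CPM in WT islets, and its genotypes overlapped (log2 fold change -0.08, 95% interval -0.21 to 0.04, adjusted p = 0.37). Stxbp3, Stxbp4 and Stxbp5 did not pass.

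**Figure D3:**
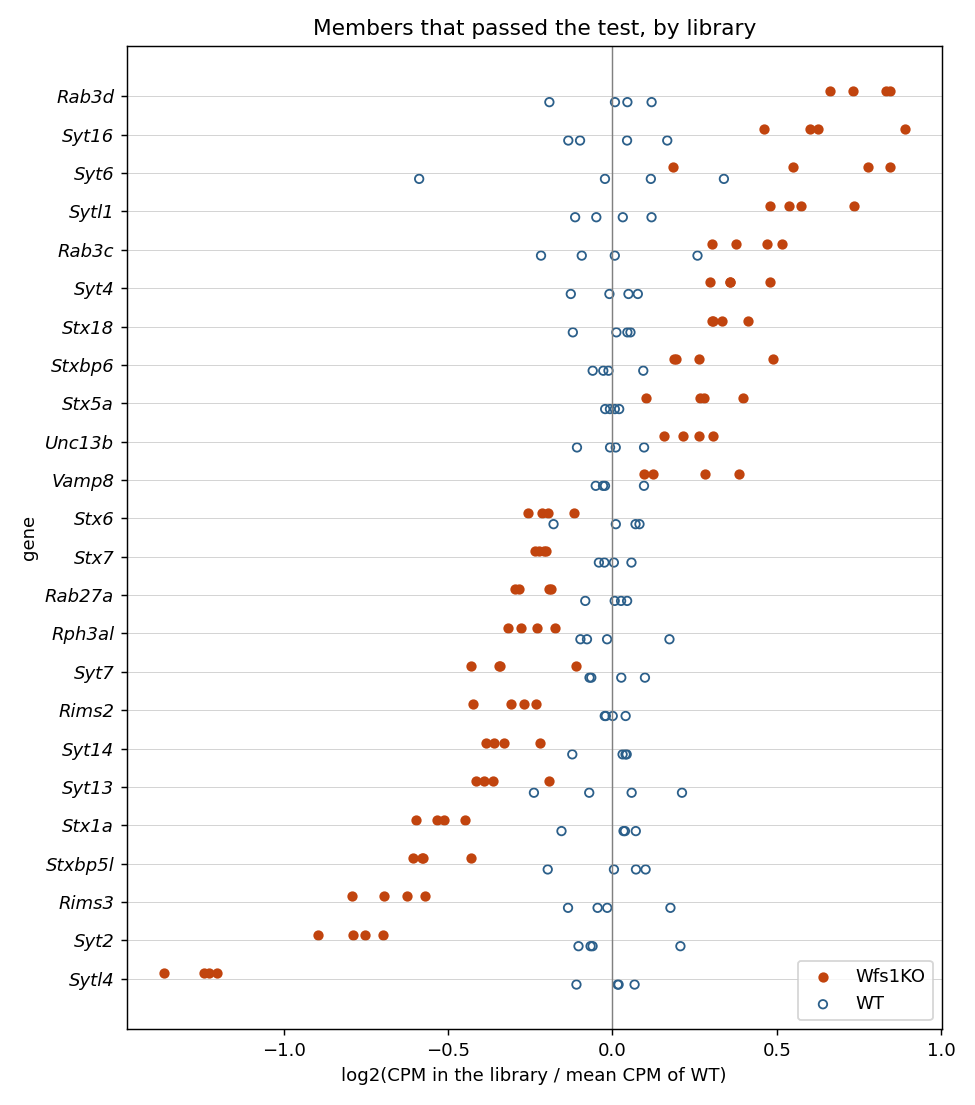
CPM of each library over the mean of the WT libraries, on a log2 scale, for 24 genes that passed the test, with filled points for Wfs1KO and open points for WT libraries. For Syt6, Syt13 and Stx6 the ranges of the genotypes overlap, and for the other 21 they do not.

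Synaptotagmins that bind calcium trigger fusion; of 7 tested, 1 rose and 2 fell. Syt7, a high-affinity sensor and the main one of these by level per length, was counted at 348, 328, 409 and 348 CPM in Wfs1KO islets, against 422, 421, 473 and 449.9 CPM in WT islets. The highest Wfs1KO value, in replicate 3, came near the lowest WT value without reaching it (log2 fold change -0.30, SE 0.07, adjusted p = 0.0102). Syt2, a fast sensor of neurons, was low in islets and was counted at 7.81, 7.06, 7.62 and 8.12 CPM in Wfs1KO islets, against 12.2, 15.2, 12.6 and 12.6 CPM in WT islets. The genotypes were apart in Syt2 (log2 fold change -0.78, SE 0.10, adjusted p = 1.03e-04). Syt6 was low as well, at 7.14, 6.10, 4.73 and 7.47 CPM in Wfs1KO islets, against 4.10, 2.77, 5.27 and 4.52 CPM in WT islets, with Wfs1KO replicate 3 below WT replicate 3 (log2 fold change 0.62, SE 0.19, adjusted p = 0.0395). The Syt6 call was lost without Wfs1KO replicate 1, 2 or 4 or WT replicate 1, 2 or 4, with adjusted p of 0.0596 to 0.0967. Its log2 fold change was 0.92 in replicates 1 and 2 alone (adjusted p = 0.00398) and 0.32 in replicates 3 and 4 alone (adjusted p = 0.444). Syt5, a sensor on dense-core granules, did not pass, at 27.9, 26.7, 27.4 and 22.7 CPM in Wfs1KO islets, against 24.9, 21.9, 29.3 and 36.9 CPM in WT islets, with WT replicate 4 the highest and WT replicate 2 the lowest of the 8 (log2 fold change -0.11, 95% interval -0.44 to 0.22, adjusted p = 0.668). Syt9, another sensor of insulin granules, did not pass although its libraries did not overlap, at 25.8, 25.2, 26.1 and 30.3 CPM in Wfs1KO islets, against 24.2, 21.1, 24.5 and 23.6 CPM in WT islets (log2 fold change 0.20, 95% interval 0.04 to 0.36, adjusted p = 0.0807).

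Of 8 tested synaptotagmins that lack the usual calcium-binding residues, 2 rose and 2 fell. Syt13 was the most abundant member of all per length, at 283 CPM per kb in Wfs1KO islets and 358 in WT islets. It was counted at 1043, 1006, 1172 and 1023 CPM in Wfs1KO islets, against 1277, 1136, 1396 and 1553 CPM in WT islets, with Wfs1KO replicate 3 above WT replicate 2 (log2 fold change -0.34, SE 0.09, adjusted p = 0.0209). The call was lost without Wfs1KO replicate 1, 2 or 4 or WT replicate 3 or 4, with adjusted p of 0.0502 to 0.0682. Syt4, a regulator of granule release whose level rises as mouse beta cells mature, rose, at 218, 218, 209 and 237 CPM in Wfs1KO islets, against 179.6, 156, 176 and 169 CPM in WT islets. The Syt4 genotypes did not overlap (log2 fold change 0.37, SE 0.06, adjusted p = 6.64e-04), and an exon of Gm26658 lies over it on the opposite strand. Syt16 rose, at 14.5, 13.2, 17.7 and 14.7 CPM in Wfs1KO islets, against 8.93, 8.72, 10.7 and 9.87 CPM in WT islets, again with no overlap (log2 fold change 0.65, SE 0.11, adjusted p = 7.30e-04), and an exon of Gm29587 lies over it on the opposite strand. Syt14 fell, at 107, 109, 119.7 and 111 CPM in Wfs1KO islets, against 142, 128, 144 and 143 CPM in WT islets, and every Wfs1KO library lay below every WT library (log2 fold change -0.32, SE 0.06, adjusted p = 0.00132). Within this group per length, Syt4 took 15.04 ± 1.33% in Wfs1KO islets and 9.97 ± 0.947% in WT islets.

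Complexins bind assembled SNARE bundles; none of the 3 tested passed with edgeR or with DESeq2, and 1 of them, Cplx3, had an unadjusted p under 0.05. Cplx2, the islet complexin and the second most abundant member per length, was counted at 662, 746, 814 and 822 CPM in Wfs1KO islets, against 887, 815, 824 and 875 CPM in WT islets. Only Wfs1KO replicates 1 and 2 of Cplx2 lay clearly under the WT range (log2 fold change -0.16, 95% interval -0.32 to 0.01, adjusted p = 0.176), and replicates 1 and 2 alone gave an adjusted p of 0.0424. Cplx1 was low, at 6.23, 4.26, 3.17 and 5.49 CPM in Wfs1KO islets, against 3.84, 2.37, 4.19 and 4.17 CPM in WT islets, and overlapped (log2 fold change 0.41, 95% interval -0.09 to 0.90, adjusted p = 0.255). In replicates 1 and 2 alone all 3 passed, Cplx1 with a log2 fold change of 0.74 and an adjusted p of 0.0487, whereas in replicates 3 and 4 alone none did. Cplx3 stayed below 1.3 CPM in all libraries.

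Rim and Unc13 proteins prime docked granules; of 7 tested, 1 rose and 2 fell. Rims3, a short Rim protein, fell the most of these. Rims3 (NM_182929, chr4:120877869-120891560, plus strand) was counted at 40.9, 42.97, 38.2 and 44.6 CPM in Wfs1KO islets, against 60.3, 74.8, 64.2 and 65.5 CPM in WT islets. The highest Wfs1KO library was below the lowest WT library (log2 fold change -0.67, SE 0.07, adjusted p = 3.17e-05). Rims2, the scaffold that links Rab3 to priming in islets, was counted at 64.8, 58.3, 66.5 and 63.1 CPM in Wfs1KO islets, against 76.8, 80.3, 78.1 and 77.01 CPM in WT islets, without overlap (log2 fold change -0.31, SE 0.05, adjusted p = 0.00125). The summed level of the 4 Rim genes per length was 52.2 ± 2.71 CPM per kb in Wfs1KO islets and 79.6 ± 6.46 CPM per kb in WT islets (SD, n = 4 each). Rims3 alone took 82.3% of this sum on average in Wfs1KO islets and 85.8% in WT islets, so the sum mostly follows Rims3.

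Unc13b (Munc13-2) rose, at 90.1, 86.6, 95.9 and 93.1 CPM in Wfs1KO islets, against 72.1, 83.00, 77.3 and 78.2 CPM in WT islets. Its genotypes did not overlap (log2 fold change 0.24, SE 0.06, adjusted p = 0.00989), but in replicates 1 and 2 alone the call was lost, with an adjusted p of 0.181. Unc13a (Munc13-1), the priming factor best known in beta cells, did not pass, at 97.3, 93.2, 112 and 107 CPM in Wfs1KO islets, against 99.3, 117, 119 and 109.6 CPM in WT islets. Its libraries overlapped (log2 fold change -0.12, 95% interval -0.28 to 0.03, adjusted p = 0.281), and exons of Colgalt1 lie on the opposite strand. Unc13b took 50.8 ± 0.337% of the Unc13 family per length in Wfs1KO islets and 45.1 ± 1.29% in WT islets. Unc13c, Unc13d and Rims1 did not pass.

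The SNAREs of endosomes, the Golgi and the endoplasmic reticulum split, with 2 of 10 higher and 2 lower. Stx18, a SNARE of the endoplasmic reticulum, rose, at 37.99, 41.03, 38.8 and 38.1 CPM in Wfs1KO islets, against 31.8, 28.3, 31.1 and 32.00 CPM in WT islets, with all Wfs1KO libraries above all WT libraries (log2 fold change 0.34, SE 0.06, adjusted p = 0.00119). Exons of Gm42858 and Nsg1 lie over Stx18 on the opposite strand. Stx5a, the syntaxin of transport between the endoplasmic reticulum and the Golgi, rose too, at 101, 115, 124 and 113 CPM in Wfs1KO islets, against 92.97, 93.9, 94.9 and 95.8 CPM in WT islets, without overlap (log2 fold change 0.26, SE 0.06, adjusted p = 0.00754). In replicates 1 and 2 alone the Stx5a call was lost, with an adjusted p of 0.125.

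Stx7, a SNARE of late endosomes, fell, at 110.4, 112, 109.5 and 112 CPM in Wfs1KO islets, against 134, 125, 129 and 127 CPM in WT islets, and its genotypes did not overlap (log2 fold change -0.22, SE 0.05, adjusted p = 0.00501). Stx6, a SNARE of the trans-Golgi network that is found on immature granules, was counted at 51.2, 53.3, 56.4 and 52.7 CPM in Wfs1KO islets, against 61.5, 53.97, 64.2 and 64.7 CPM in WT islets. WT replicate 2 of Stx6 lay inside the Wfs1KO range (log2 fold change -0.20, SE 0.06, adjusted p = 0.0472). The Stx6 call was lost without Wfs1KO replicate 1, 2 or 4 or WT replicate 1, 3 or 4, with adjusted p of 0.0835 to 0.145. The 6 others, Snap29, Snap47, Stx8, Stx12, Stx16 and Stx17, did not pass.

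Levels across the members spanned a wide range per length. In Wfs1KO islets, the most abundant after Syt13 and Cplx2 were Vamp2, Snap25 and Rab27a, in that order. Vamp2 stood at 92.9 CPM per kb in Wfs1KO islets and 96.3 in WT islets. Snap25 stood at 87.9 CPM per kb in Wfs1KO islets and 89.02 in WT islets, and Rab27a at 83.1 in Wfs1KO islets and 98.1 in WT islets. Sytl4 stood at 44.3 CPM per kb in Wfs1KO islets and 106 in WT islets, so Sytl4 came next after Syt13 and Cplx2 in WT islets. The sum over the 75 genes was 1848 ± 59.7 CPM per kb in Wfs1KO islets and 2029 ± 72.9 CPM per kb in WT islets (SD, n = 4 each). The 6 genes left untested, Stx19, Vamp7, Syt10, Syt8, Cplx4 and Rims4, had at most 8 counts in any library. Vamp7 was listed at 0 throughout, on an unplaced contig of chromosome X, and none of the 13 table entries on such contigs held a read. Stxbp3 has a pseudogene copy, Stxbp3-ps, with which its reads may be shared. Exons on the opposite strand also lie over Rab3a (Mpv17l2), Syt6 (Atg4a-ps) and Syt7 (Gm26859).

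**Figure D4:**
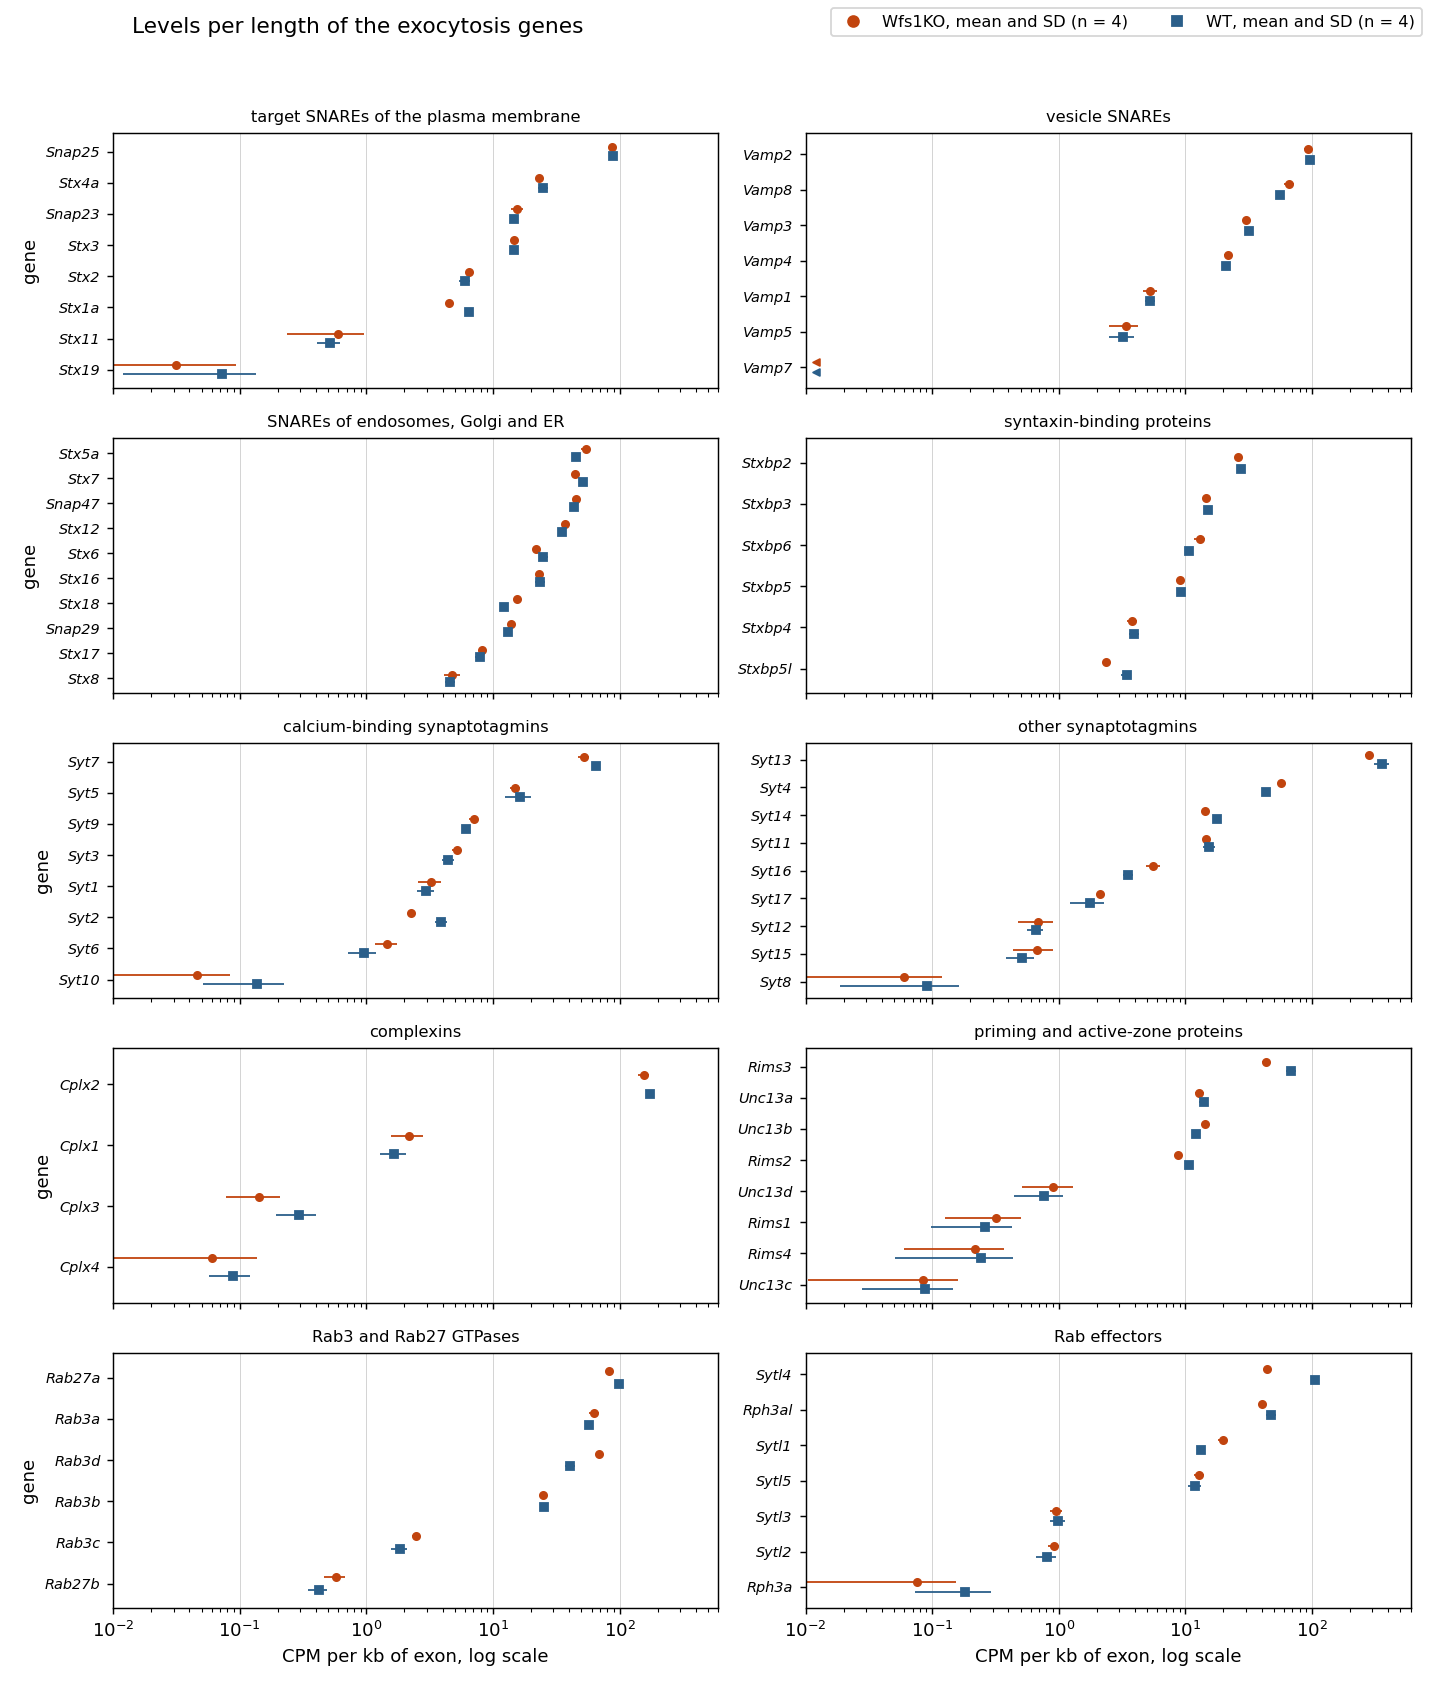
Level of 73 genes in CPM per kb of exon on a log axis, mean and SD over 4 libraries, Wfs1KO above WT in each row, 1 panel per role. Arrowheads at the left edge stand for means of at most 0.01, and an SD that would cross the left edge stops there. Syt13 leads at 283 CPM per kb in Wfs1KO islets and 358 in WT islets.

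The 44 tested members that did not pass had log2 fold changes between -1.23 and 0.46. For 32 of them the 95% interval stayed within 1.5-fold in either direction. The 29 with at least 10 CPM lay between -0.16 and 0.23.

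A further 68 genes of the exocytosis pathway, outside the member families, were counted as well: 10 rose, 13 fell and 45 did not pass. Their median log2 fold change was -0.02. The share called was 33.8%, beside 18.9% of all tested genes. Of all genes with a mean of at least 10 CPM 24.9% were called, and at 50 CPM or more 29.1%. The 4 with the smallest adjusted p were Bet1, Cadps2, Sec22b and Exoc7. Bet1, a SNARE of transport from the endoplasmic reticulum, averaged 74.7 ± 4.18 CPM in Wfs1KO islets and 48.5 ± 1.63 CPM in WT islets (SD, n = 4 each), with a log2 fold change 0.62, SE 0.06, adjusted p = 6.36e-06. Sec22b, a SNARE of the same route, averaged 147 ± 4.88 CPM in Wfs1KO islets and 114 ± 6.98 CPM in WT islets (SD, n = 4 each), with a log2 fold change 0.37, SE 0.06, adjusted p = 4.04e-04. Cadps2, a priming factor for dense-core granules, averaged 39.7 ± 2.59 CPM in Wfs1KO islets and 23.9 ± 2.06 CPM in WT islets (SD, n = 4 each), with a log2 fold change 0.73, SE 0.07, adjusted p = 1.66e-05. Exoc7, a subunit of the exocyst tether, averaged 53.1 ± 1.64 CPM in Wfs1KO islets and 65.7 ± 0.301 CPM in WT islets (SD, n = 4 each), with a log2 fold change -0.31, SE 0.05, adjusted p = 5.19e-04. The genotypes' means were apart by more than the SD in each, which follows from the choice by smallest adjusted p and adds no support.

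The authors' deposited table of fold changes held an adjusted p under 0.05 for the same 25 members, 11 higher and 14 lower.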

How the data were processed

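The values are raw exon counts per gene in a table deposited by the authors. Per the submitters' processing notes, bcl2fastq, STAR 2.6.0a, HOMER 4.11.1, DESeq2 and the mouse build mm10 were used; the file header holds HOMER's counting command, which names no strand option. A second deposited table holds the authors' log2 fold changes and p-values, used only for the closing sentence of the report, and log2 values per library, which were not used. The exon length per gene comes from the count table, per the file headers.

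Counts were tested with edgeR 4.0.16 (quasi-likelihood F-test, TMM scaling, robust fit) in R 4.3.3, with genotype as the only term, after filterByExpr with a minimum count of 10 and a minimum total of 15. That left 15733 of 24537 genes; p-values were adjusted by Benjamini-Hochberg over all of them, and an adjusted p under 0.05 counts as passed. The biological coefficient of variation was 10.7%. CPM are counts scaled to a common library total after TMM, and CPM per kb divides them by exon length. Counts of 15810830 to 27057617 per library set the precision. Pairs of libraries differed by 5.04 to 89.6 times the counting noise (chi-square per degree of freedom), so none was a duplicate. Samples with the same replicate number deviated together in all 4 pairs (r = 0.153, 0.443, 0.269 and 0.188 over genes). This was the criterion for running the replicate block as an alternative, and the main test had no term for pairs. Wfs1KO replicate 1 correlated more with WT replicate 2 (0.507) than with WT replicate 1. Wfs1KO replicate 4 correlated more with WT replicate 3 (0.458) than with WT replicate 4. The numbers therefore need not stand for pairs.

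The 75 genes, their roles and the gene lists were chosen with earlier results of these data known. Values per library are given for every member that passed and for the 2 members of each role with the highest level per length; of the accessory genes, the 4 with the smallest adjusted p are named. The values of 2 of the 75 genes are not reported here, although both are in the counts. Syt9 and Sytl5 were named after their values were seen. Alternatives were DESeq2 1.42.0, its size factors, limma 3.58.1 (voom with quality weights), other filters on low counts, the 20 most abundant genes left out, an acinar score as covariate, the replicate block, replicates 1 and 2 or 3 and 4 as a block or alone, each library left out, and thresholds of 0.01 and 0.10. Overlapping exons came from GENCODE M21, in which 74 of the 75 genes were found, and 14 had an exon over one of the opposite strand. Promoter sequences are from RefSeq; the limit of 100 bases between starts was chosen after seeing the data.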

Additional observations from a re-analysis of the deposited data

Results flagged for a closer look

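In 7 of the 134 groups of 4 libraries examined (67 genes in each genotype), 1 library stood far from the other 3 by Dixon's criterion, which chance alone meets in about 1 in 20 groups. Syt14 had 128 CPM in WT replicate 2, against 142 to 144 CPM in the other WT libraries. Syt2 had 15.2 CPM in WT replicate 2, against 12.2 to 12.6 CPM in the other WT libraries. Stx11 had 1.62 CPM in WT replicate 2, against 1.08 to 1.13 CPM in the others. Stxbp4 had 20.3 CPM in WT replicate 4, against 24.2 to 24.8 CPM in the others. Among Wfs1KO libraries, Vamp4 had 99.3 CPM in replicate 1, against 111 to 113 CPM in the others. Stxbp5l had 30.7 CPM in Wfs1KO replicate 4, against 27.1 to 27.7 CPM in the others, and Sytl3 had 1.83 CPM there, against 2.27 to 2.37 CPM. The calls of Stxbp5l, Syt2 and Syt14 were kept when the library that stood apart, or any other single library, was left out.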

How the results depend on the processing

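All 25 members that passed kept their direction under every alternative, and 20 of them passed whichever library was left out; Rph3al, Stx6, Syt6, Syt13 and Vamp8 did not. With the replicate block, 11 members were higher and 14 lower, the same 25 genes, and over all genes 1603 were higher and 1329 lower; the block changed no member's call. DESeq2, its size factors, voom and the filter of 1 CPM in 4 libraries also kept the same 25. Leaving out 1 library gave 9 to 11 members higher and 11 to 14 lower, and over all genes 1354 to 1460 higher and 1019 to 1299 lower. Without a filter Stx6 was lost (adjusted p = 0.0977), and without the 20 most abundant genes Vamp8 (0.0566). The acinar covariate lost Stx6 and Vamp8 and gained Rab27b and Syt9. Replicates 3 and 4 alone gave 964 genes higher and 882 lower over all genes, and 5 higher and 5 lower of the accessory genes, whereas replicates 1 and 2 alone gave 1548 higher and 1391 lower over all genes, and 9 and 13 of the accessory genes; the cause was not tested. At an adjusted p under 0.01, 962 genes were higher and 782 lower over all genes. Among members given with values per library by the naming rule, the sign turned for 3 that did not pass: Syt5 at a log2 fold change of 0.20 in replicates 1 and 2 alone and 0.0499 without WT replicate 4 (range -0.22 to 0.0499 with 1 library left out), Snap25 at 0.0031 without Wfs1KO replicate 1 and 0.0019 without WT replicate 3 (range -0.0446 to 0.0031), and Vamp2 at 0.0112 in replicates 3 and 4 alone. Replicates 1 and 2 alone and 3 and 4 alone each shared 20 of the 25 calls; the first gained Cplx1, Cplx2, Cplx3 and Stx4a, the second Sytl5. Intervals were widest under 10 CPM, where 16 of the members lay.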

Other observations

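The 68 accessory genes were grouped after their values were seen and therefore without a test. Among them, the SNAREs and Sec1/Munc18 proteins (a family that binds SNAREs) of inner membranes numbered 15. Of these 15, 6 rose and none fell, beside 10.4% of all tested genes higher and 8.49% lower. Among the members, the 10 SNAREs of these membranes had 2 higher and 2 lower. The 6 accessory genes that rose included Bet1 and Sec22b, already given, and Gosr2, a Golgi SNARE (log2 fold change 0.26). The others were Scfd1 or Sly1, a SNARE-binding protein of the Golgi (0.25), its relative Scfd2 (0.39), and Use1, a SNARE of the endoplasmic reticulum (0.25). Of 9 scaffolds of the active zone, none rose and 3 fell: Pclo (-0.51), Rimbp2 (-0.29) and Bsn (-0.26), the large proteins that in neurons hold calcium channels and vesicles together.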
